A study of Mus musculus with 10 samples.

Results

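Ribosome biogenesis and MYC-linked growth were followed through 39 listed genes in a mouse model of T-ALL, an acute leukemia of immature T cells. The genes are those of nucleolar ribosome production and a few growth genes that the transcription factor MYC is known to activate. Each gene was read from 1 probe set, the one with the highest mean over the 10 arrays among those annotated to that gene alone. This gave a value for 38 of the 39 genes, and all 38 lay above the limit for dim genes (4.59 log2 units) and were tested. The exception was Mrto4, a large-subunit assembly factor, whose only probe set is also annotated to pseudogenes. The 38 genes are a small share of the 12736 genes tested.

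All 10 samples were leukemic bone marrow cells of secondary recipient mice, sorted by GFP or a similar marker. The leukemias were driven by ICN1, the active intracellular part of NOTCH1, and in both groups carried the ROSCreERT2 transgene and 2 floxed CnB1 alleles. CnB1, whose current symbol is Ppp3r1, encodes the regulatory subunit of calcineurin, a calcium-dependent phosphatase of T cells. The 5 OIL samples came from leukemic mice given the corn oil carrier, which leaves CnB1 in place. The 5 TAM samples came from leukemic mice given tamoxifen, which activates the Cre recombinase and deletes it. No group lacked the Cre or the floxed alleles, so tamoxifen and Cre activity cannot be told apart from loss of CnB1. Each of 204, 206, F3.1, F3.2 and F3 labels 1 OIL and 1 TAM array. The meaning of these names and the age of the animals are not stated, nor is it said that each array is a separate mouse. A p-value here therefore covers the spread among arrays, which may in part be technical.

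Ribosome production begins in the nucleolus, where RNA polymerase I transcribes the precursor of the ribosomal RNAs. Small nucleolar RNA-protein particles (snoRNPs) modify that RNA, and large sets of assembly factors cut, fold and package it into the small (40S) and large (60S) subunits. MYC is known to raise many of these genes together with enzymes of polyamine and nucleotide synthesis. In NOTCH1-driven T-ALL, Myc is a known direct target of NOTCH1.

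MYC and its partner MAX bind the E-box CACGTG, a palindrome that reads the same on both strands. RefSeq (assembly GRCm38.p6) gave a window of 250 bases before to 50 bases after a transcription start for 32 of the 38 genes. The E-box was present in 7 of these 32 genes (21.9%), against 8.09% of all 27025 genes with such a window. A match describes the letters of the window and not a bound site, and a window without a match says nothing about binding. The 10 matches are shown because they lie near transcript starts of genes followed below. The E-box is in capitals, with up to 12 bases on either side, 5′ to 3′.
Apex1, chr14:50924913-50924942, + strand: gcgctccagaacCACGTGggggcggagccc
Apex1, chr14:50924937-50924966, + strand: gagccctcgaatCACGTGaccacaccaatc
Apex1, chr14:50924958-50924987, + strand: acaccaatcgccCACGTGggaacaggcaga
Eif4e, chr3:138527028-138527057, + strand: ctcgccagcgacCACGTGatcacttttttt
Eif4e, chr3:138527192-138527221, + strand: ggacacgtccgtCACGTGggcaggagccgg
Nop2, chr6:125131811-125131840, + strand: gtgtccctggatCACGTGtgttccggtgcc
Pes1, chr11:3963965-3963994, + strand: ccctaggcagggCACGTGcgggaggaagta
Tsr1, chr11:74898092-74898121, + strand: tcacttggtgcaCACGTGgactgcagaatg
Utp20, chr10:88826765-88826789, - strand: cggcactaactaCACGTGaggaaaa
Wdr43, chr17:71616220-71616249, + strand: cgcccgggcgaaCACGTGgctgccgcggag
Apex1 held 3 matches and Eif4e held 2, while Nop2, Pes1, Tsr1, Utp20 and Wdr43 held 1 each. The bases before a transcript start of Cad and Nop58 are shown because these members were called across the sample labels. RefSeq's window uses a transcript start that lies inside the full span of each of these genes, so the last bases of each stretch fall within that span. The window of Eif4e that holds both of its matches is shown with them, E-box in capitals. That stretch lies wholly inside the span of the gene, chr3:138526191-138559696. The 250 bases before the start of that span, chr3:138525941-138526190, hold 0 matches.
Cad, chr5:31054530-31054779, + strand: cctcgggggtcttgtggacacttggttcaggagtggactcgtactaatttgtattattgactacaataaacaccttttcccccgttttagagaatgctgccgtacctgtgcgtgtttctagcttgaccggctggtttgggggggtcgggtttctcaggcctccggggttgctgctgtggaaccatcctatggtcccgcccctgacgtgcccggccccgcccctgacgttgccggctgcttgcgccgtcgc
Nop58, chr1:59684756-59685005, + strand: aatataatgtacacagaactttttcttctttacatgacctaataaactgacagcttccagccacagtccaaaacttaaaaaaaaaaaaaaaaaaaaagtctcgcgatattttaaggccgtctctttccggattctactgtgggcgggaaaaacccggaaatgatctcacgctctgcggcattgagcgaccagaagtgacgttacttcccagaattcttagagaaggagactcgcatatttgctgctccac
Eif4e, chr3:138527018-138527267, + strand: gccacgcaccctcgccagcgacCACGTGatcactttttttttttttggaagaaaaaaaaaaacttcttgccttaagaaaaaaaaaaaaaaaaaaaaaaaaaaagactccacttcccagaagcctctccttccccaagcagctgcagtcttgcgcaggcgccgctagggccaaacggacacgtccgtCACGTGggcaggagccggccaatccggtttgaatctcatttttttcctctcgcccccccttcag
The printed stretches of Cad and Nop58 hold no CACGTG.

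The deleted gene was examined first. A dim probe set of Ppp3r1 differed by -2.06 log2 units, from 5.32 ± 0.58 with oil to 3.26 ± 0.21 with tamoxifen (SD, n = 5 each). A two-sided exact permutation test gave p = 0.00794, the smallest that 5 against 5 arrays allow. The brighter probe set of Ppp3r1 moved by only -0.12 (9.80 ± 0.09 against 9.67 ± 0.04 (SD, n = 5), exact permutation p = 0.0238). The sources used here do not place either probe set relative to the deleted part. All 14 T-lineage markers with a probe set were above the dim limit, and their summed level spanned 15.02 to 15.24 in OIL and 15.05 to 15.25 in TAM. Marker sums of other marrow cells spanned 8.59 to 10.65 in OIL and 9.09 to 11.52 in TAM for myeloid cells (9 of 12 markers above the limit), and 8.16 to 8.51 and 8.17 to 8.35 for erythroid cells (6 of 9). For megakaryocytes and stroma (6 of 10) both 206 arrays stood apart, at 9.95 in OIL and 10.62 in TAM, with the other 8 arrays between 8.55 and 8.84. B cell marker sums (4 of 9) spanned 7.98 to 8.29 in OIL and 8.02 to 8.36 in TAM. Among the arrays, OIL 206 and TAM F3.2 stood at opposite ends for the members, as described below with values without them. Of all array pairs, the OIL arrays labelled F3.1 and F3.2 correlated most closely (Pearson's r over all 45101 probe sets 0.997).

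The comparison of TAM with OIL asked which transcripts differ after tamoxifen, which in these cells also activates Cre and deletes CnB1. None of the 38 genes passed the test in TAM against OIL (limma, adjusted p under 0.05 over all 12736 genes tested), whereas 0.471% of all genes did, 60 in number. With the sample label as a replicate block, again 0 of 38 were called, although the share of all genes called grew to 3.38%. At an unadjusted p under 0.05, 1 member passed in each fit, Rrs1 without the block and Odc1 with it, against 13% and 22.4% of all genes.

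The differences were small in both directions. TAM minus OIL ranged from -0.24 (Odc1) to 0.20 (Rrs1) log2 units, with 15 genes above 0 and 23 below. The median was -0.05, beside -0.03 over all genes tested, and its sign rested on single arrays: it was 0.00108 without OIL 206 and 0.03 without TAM F3.2. On the probe sets used, none of the 38 differed by more than 0.25 log2 units, a size exceeded by 16.5% of all genes. The members' 41 other probe sets above the dim limit ran from -0.46 (Nip7) to 0.57 (Tfrc), with 16 higher in TAM. In bulk samples, fewer cells of a type and less RNA per cell cannot be told apart, and array normalization removes any shift that is common to all genes.

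For the probe sets used, these arrays also bound the size of a change. The 95% interval of 37 of the 38 genes lay within 1.5-fold in either direction, and that of all 38 within 2-fold. Tfrc was the exception to the narrower bound, with an upper limit of 0.80 log2 units (1.74-fold), and Odc1 had the lowest limit, -0.54. For no member were the 5 TAM arrays separated from the 5 OIL arrays, against 3.27% of all genes.

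**Figure D1:**
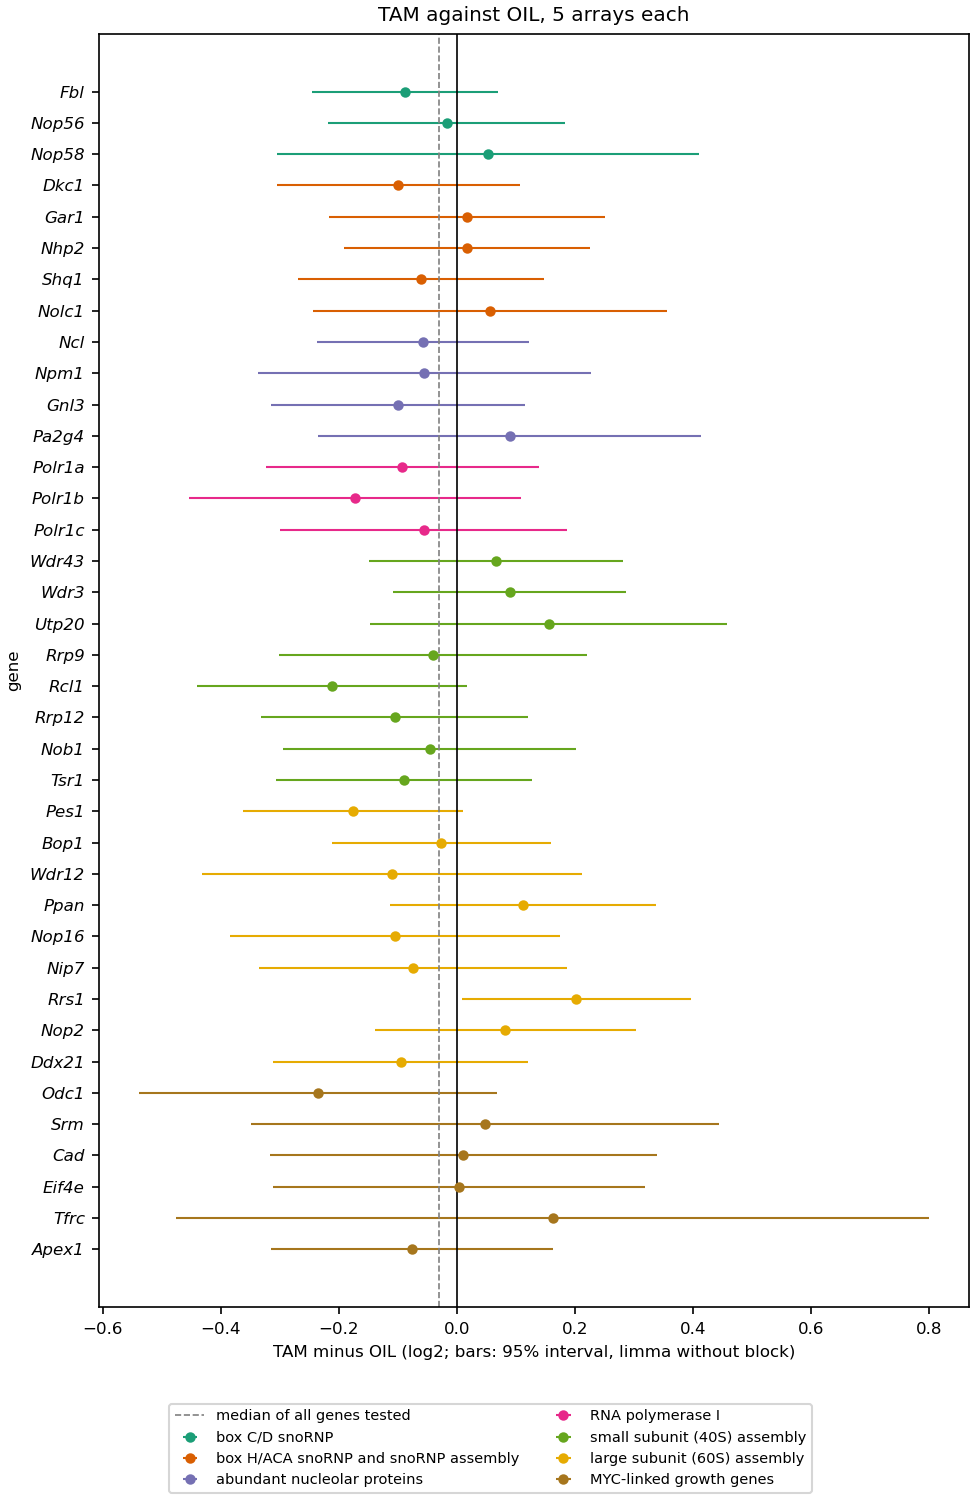
TAM minus OIL difference (log2, horizontal axis) of each of the 38 genes, coloured by role, with 95% intervals from limma without a block (5 arrays per group); the dashed line is the median of all genes tested. Points lie between -0.24 (Odc1) and 0.20 (Rrs1), and 37 of 38 intervals include 0.

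Values by array are given in the order 204, 206, F3.1, F3.2 and F3, in log2 units. The proteins of the box C/D snoRNPs, particles that methylate ribosomal RNA, were bright in every array. For Fbl (fibrillarin, the methyltransferase) the OIL arrays read 12.21, 12.34, 12.19, 12.26 and 12.20 and the TAM arrays 12.12, 12.26, 12.20, 11.96 and 12.21. Its difference was -0.09 (95% interval -0.25 to 0.07; limma adjusted p = 0.661), and its SD over the 10 arrays, 0.099, was the lowest of the members. TAM F3.2 was the lowest of its arrays and OIL 206 the highest, and the groups overlapped.

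The same end arrays recurred in Nop56, a core protein of the same particle. Its OIL arrays read 11.35, 11.60, 11.24, 11.26 and 11.32 and its TAM arrays 11.38, 11.39, 11.34, 11.11 and 11.45, a difference of -0.02 (-0.22 to 0.18; limma adjusted p = 0.966). Nop58, its paralog in the particle, read 11.57, 11.86, 11.28, 11.33 and 11.64 in OIL and 11.77, 11.89, 11.40, 11.13 and 11.75 in TAM, a difference of 0.05 (-0.31 to 0.41; limma adjusted p = 0.933). The groups overlapped, with both 206 arrays at the top and the F3.1 and F3.2 arrays of both groups at the bottom. Its position is chr1:59684961-59711510 in GRCm38.p6.

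The box H/ACA group, which directs pseudouridylation, did not pass the test in either direction in TAM against OIL. Its members were Dkc1 (dyskerin, the pseudouridine synthase), Gar1, Nhp2, the assembly factor Shq1 and Nolc1, a nucleolar phosphoprotein that binds snoRNPs. Their differences ran from -0.10 for Dkc1 to 0.06 for Nolc1, with 3 of 5 above 0. Nolc1 spread most over the arrays, from 9.49 in TAM F3.2 to 10.17 in OIL 206.

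Of the abundant nucleolar proteins, Ncl (nucleolin) read 12.54, 12.60, 12.71, 12.77 and 12.41 in OIL and 12.63, 12.55, 12.64, 12.48 and 12.44 in TAM. Its difference was -0.06 (-0.24 to 0.12; limma adjusted p = 0.817), and its groups overlapped widely. Npm1 (nucleophosmin, a histone and ribosome chaperone) read 13.14, 13.18, 12.73, 12.85 and 12.90 in OIL and 13.09, 13.11, 12.79, 12.56 and 12.98 in TAM, a difference of -0.06 (-0.34 to 0.23; limma adjusted p = 0.9). Its 4 arrays labelled 204 or 206 lay at 13.09 or above and its 6 F3-labelled arrays at 12.98 or below, whatever the treatment.

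Gnl3 (nucleostemin) and Pa2g4, a growth-regulated RNA-binding protein, differed by -0.10 and 0.09 between TAM and OIL, and neither passed the test. Pa2g4 read 12.0025, 12.20, 11.74, 11.77 and 11.92 in OIL and 12.15, 12.32, 11.94, 11.54 and 12.12 in TAM. Both 206 arrays were its highest and TAM F3.2 its lowest.

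RNA polymerase I was represented by Polr1a and Polr1b, its largest subunits, and Polr1c, a subunit shared with RNA polymerase III. All 3 lay below 0 in TAM against OIL, and none of the 3 passed the test. Of all 12736 genes tested, 7517 lay below 0. Among 12 other genes of polymerase I and its factors, from the wider list described below, 8 lay above 0 and 4 below (median 0.03). Polr1b read 8.09, 8.44, 8.32, 8.50 and 7.97 in OIL and 8.04, 8.06, 8.40, 8.08 and 7.86 in TAM, a difference of -0.17 (-0.45 to 0.11; limma adjusted p = 0.623). The TAM array was the lower in 4 of its 5 label pairs, F3.1 being the exception. Polr1a differed by -0.09 and Polr1c by -0.06.

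Small-subunit assembly was covered by 8 genes, with 3 above and 5 below 0 and none called. Utp20, a large scaffold of the early small-subunit precursor, had the largest positive difference of them, 0.16 (-0.15 to 0.46; limma adjusted p = 0.694). Its values were 9.02, 9.38, 8.65, 8.77 and 9.03 in OIL and 9.23, 9.32, 9.0035, 8.91 and 9.17 in TAM, and only the 206 pair was lower in TAM. Rcl1, a factor of early cleavage, had the largest negative one, -0.21 (-0.44 to 0.02; limma adjusted p = 0.43).

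Rcl1 read 8.99, 8.99, 8.75, 9.04 and 8.59 in OIL and 8.74, 8.74, 8.77, 8.49 and 8.55 in TAM, so that OIL F3.1 and OIL F3 lay among the TAM arrays. The other 6 were Wdr43 and Wdr3 (early processome proteins), Rrp9 (a U3 snoRNP protein), Rrp12 (an export factor), Nob1 (the endonuclease that trims the end of 18S RNA) and Tsr1 (a late assembly GTPase-like factor). Their differences ran from -0.11 for Rrp12 to 0.09 for Wdr3.

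Large-subunit assembly held 9 measured genes, 3 above and 6 below 0, again with none called. Rrs1, which helps bring the 5S RNA into the large subunit, had the largest positive difference of all 38 members. It read 10.13, 10.59, 10.18, 10.25 and 10.35 in OIL and 10.57, 10.47, 10.54, 10.45 and 10.47 in TAM, a difference of 0.20 (0.01 to 0.40; limma unadjusted p = 0.0428, adjusted p = 0.363). The 5 TAM arrays fell within 10.45 to 10.57, inside the wider OIL span, whose top was the 206 array. A second Rrs1 probe set, at 10.19 in OIL and 10.24 in TAM, gave a difference of 0.05.

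Pes1 belongs with Bop1 and Wdr12 to the PeBoW complex, which matures the large-subunit RNAs. Pes1 read 9.66, 9.78, 9.71, 9.88 and 9.55 in OIL and 9.62, 9.66, 9.60, 9.37 and 9.45 in TAM, a difference of -0.18 (-0.36 to 0.01; limma adjusted p = 0.42). It was the only member with the TAM array lower in all 5 label pairs and no member had it higher in all 5, against 13.5% and 8.4% of all genes. Its second, dimmer probe set gave 0.08 in the other direction.

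Of the partners of Pes1, Bop1 differed by -0.03 (-0.21 to 0.16), and Wdr12 by -0.11 (-0.43 to 0.21) with the TAM array higher in 4 of 5 pairs. Wdr12 read 9.86, 10.02, 10.21, 10.47 and 10.08 in OIL and 9.96, 10.02, 10.33, 9.61 and 10.17 in TAM. Its TAM F3.2 array was the lowest and its OIL F3.2 array the highest of the 10. Ppan, Nop16, Nip7, Nop2 (an RNA methyltransferase) and Ddx21 (an RNA helicase) ran from -0.10 to 0.11.

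The growth genes include Odc1, the rate-limiting enzyme of polyamine synthesis and a classic MYC target, at chr12:17544808-17551502 in GRCm38.p6. Odc1 read 10.51, 10.68, 10.36, 10.59 and 9.98 in OIL and 10.41, 10.33, 10.17, 10.05 and 9.98 in TAM. Its difference, -0.24 (-0.54 to 0.07; limma adjusted p = 0.517), was the largest negative one of the 38, with the TAM array lower in 4 of 5 pairs. Both F3 arrays read 9.98, and the groups overlapped. With the replicate block the interval was -0.44 to -0.03, at limma unadjusted p = 0.0304 and adjusted p = 0.177. Its other 2 probe sets gave -0.27 and -0.17.

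Srm, which makes spermidine from the product of Odc1, read 10.21, 10.66, 9.72, 10.12 and 10.03 in OIL and 10.46, 10.29, 10.34, 9.73 and 10.15 in TAM. The difference was 0.05 (-0.35 to 0.44; limma adjusted p = 0.946), with OIL 206 at the top and OIL F3.1 and TAM F3.2 at the bottom. Cad, the multifunctional enzyme that starts pyrimidine synthesis, read 9.70, 10.05, 9.32, 9.44 and 9.45 in OIL and 9.71, 9.90, 9.38, 9.48 and 9.55 in TAM, a difference of 0.01 (-0.32 to 0.34; limma adjusted p = 0.987). The TAM arrays fell within the span of the OIL arrays, with the 206 array highest in each group.

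Eif4e, the cap-binding translation factor, and Apex1, a base excision repair nuclease, differed by 0.00 and -0.08. Tfrc, the transferrin receptor, which brings iron into dividing cells, was the most variable member, with an SD of 0.49 over the 10 arrays. It read 10.68, 10.41, 11.06, 11.28 and 10.54 in OIL and 10.80, 10.49, 12.06, 10.61 and 10.83 in TAM. The difference was 0.16 (-0.48 to 0.80; limma adjusted p = 0.862) and rested on TAM F3.1, without which it was -0.11. Tfrc is also high in erythroid cells, and the erythroid marker sum of TAM F3.1, 8.33, lay within the range of the other arrays. The part of erythroid cells in the Tfrc values was not tested.

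**Figure D2:**
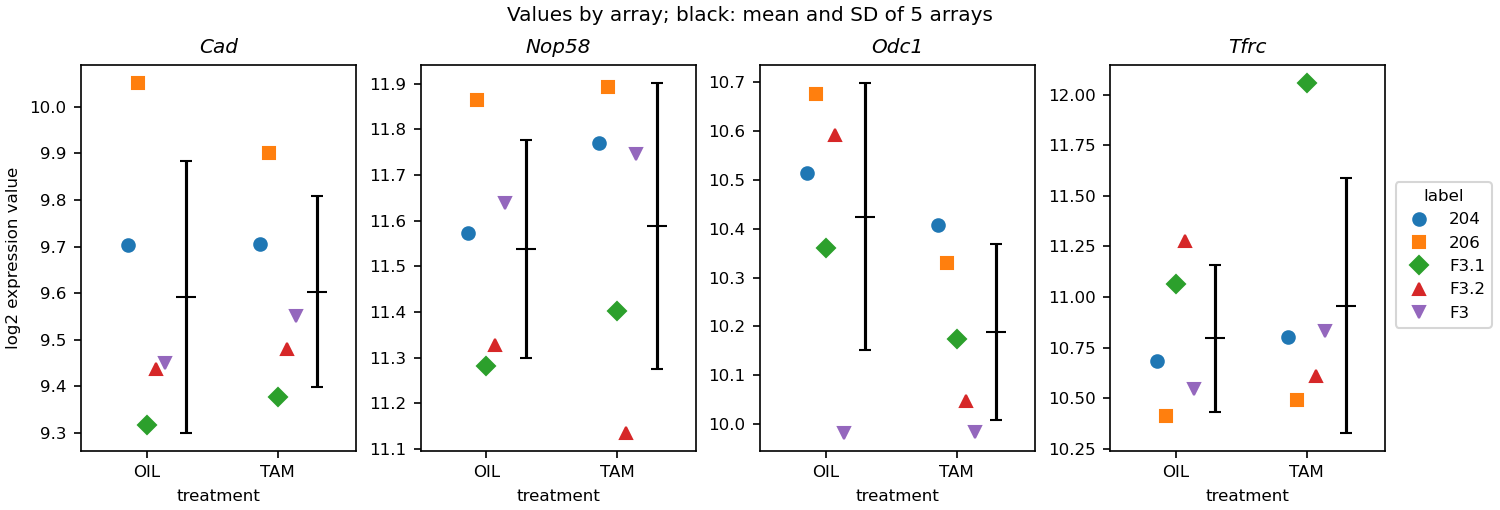
Log2 expression values of Cad, Nop58, Odc1 and Tfrc on the 10 arrays by treatment, with a colour and symbol for each label and the mean and SD of each group of 5 in black. In Cad the 204 and 206 arrays lie at 9.70 or above and the F3.1, F3.2 and F3 arrays at 9.55 or below in both groups, and in Tfrc TAM F3.1 stands alone at 12.06.

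Taken by label, the 5 pairs went in opposite directions. In the F3.1 pair, 33 of the 38 genes were higher in TAM, with a median difference of 0.09, and in the 204 pair 29 were, also with a median of 0.09. The F3 pair had 28 genes higher and a median of 0.03. In the 206 pair 32 genes were lower in TAM (median -0.10), and in the F3.2 pair 33 were lower (median -0.29). The F3.1 and F3.2 pairs rest on names with their last number dropped. Over all genes tested, the pair medians stayed between -0.07 (F3.2) and -0.01 (F3.1).

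**Figure D3:**
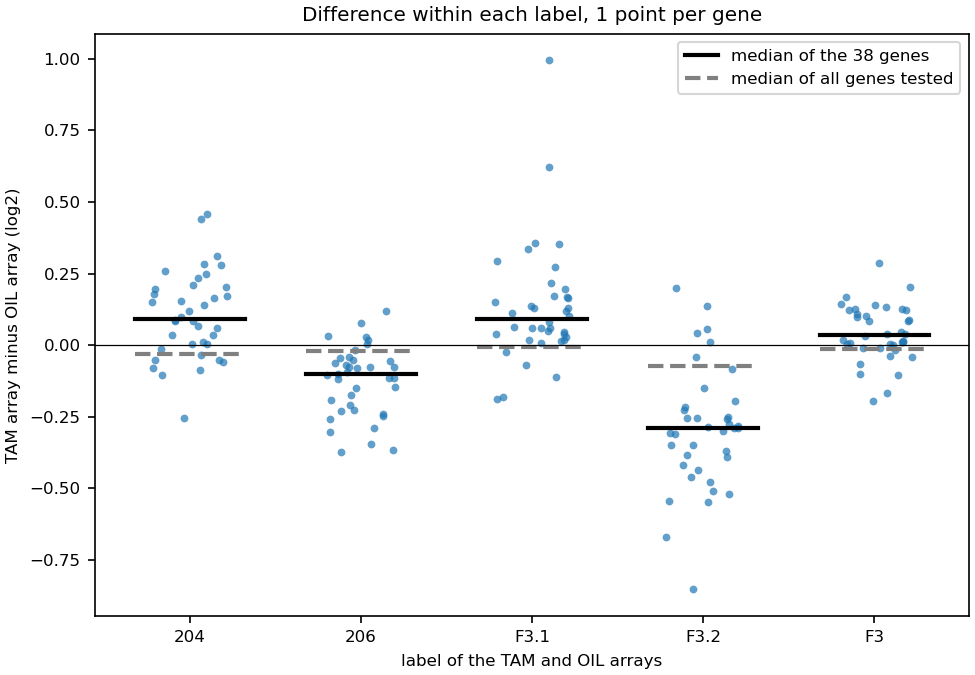
Difference of the TAM array from the OIL array of the same label (log2, vertical axis), 1 point per gene for the 38 genes, with their median (black) and that of all genes tested (dashed grey). The median is 0.09 in the 204 and F3.1 pairs and -0.29 in the F3.2 pair.

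An end array stood in each of the negative pairs. OIL 206 read above the genes' own means for 35 of 38, with a median deviation of 0.23, and was the highest array for 22 of them. TAM F3.2 read below for 35 of 38, with a median deviation of -0.26, and was the lowest array for 21. Of all genes tested, 9.61% had their highest value on OIL 206 and 16% their lowest on TAM F3.2. In TAM against OIL, 0 members were called without OIL 206 or without TAM F3.2, when 42 and 52 genes were called in all.

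The roles were alike on these arrays. All 8 snoRNP genes and all 3 polymerase I genes were above their own means on OIL 206 and below them on TAM F3.2. On TAM F3.2 the 6 growth genes also lay below, as did 8 of 9 large-subunit and 6 of 8 small-subunit genes. TAM F3.2 also had the largest 3′ minus 5′ signal of the Actb and Gapdh control probe sets, 0.70 and 0.33. On these controls, all 4 arrays labelled F3.1 or F3.2 were raised in this sign of RNA quality. They read 0.49 to 0.70 for Actb and 0.21 to 0.33 for Gapdh. The other 6 arrays read 0.34 to 0.43 and -0.04 to 0.06. On the dimmer Tfrc control, TAM F3.1 read 0.16, within the -0.01 to 0.77 of those 6 arrays. OIL F3.1, OIL F3.2 and TAM F3.2 read 1.17, 2.02 and 1.79 there. The part of RNA quality in the low values was not tested. The 19 cell cycle genes had a median deviation of 0.07 on OIL 206 and -0.10 on TAM F3.2. These were not the end arrays for the cell cycle genes, whose medians ran from -0.12 on OIL F3.2 to 0.14 on TAM 204. In the F3.2 pair their median TAM minus OIL difference was -0.02.

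**Figure D4:**
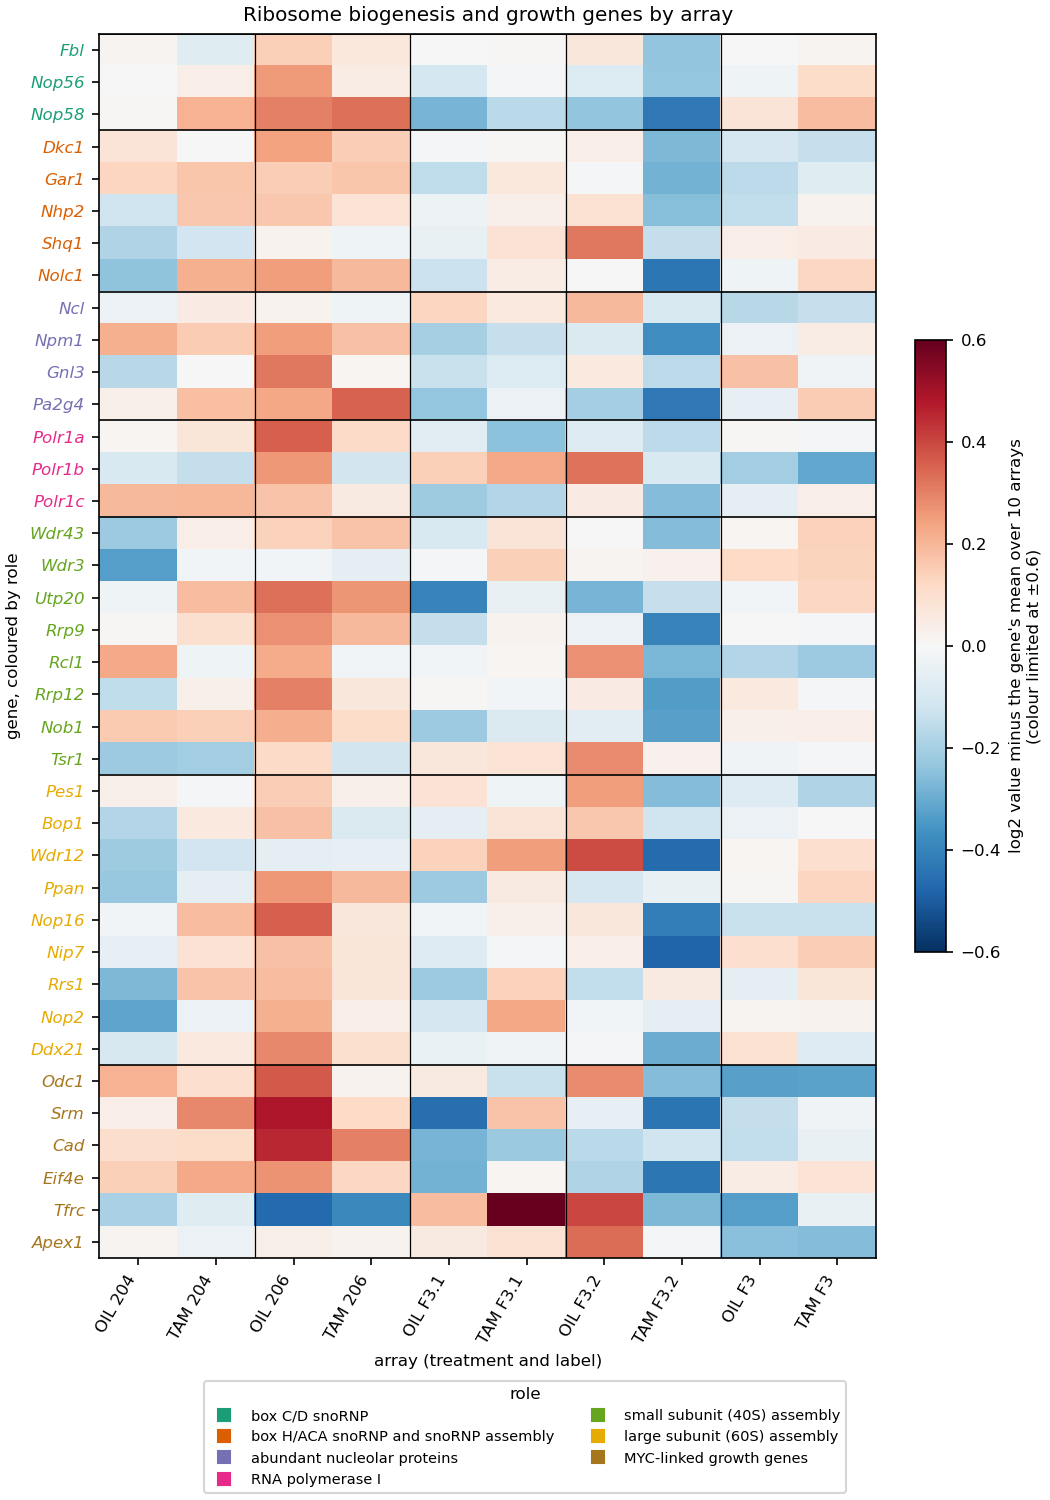
Log2 value of each of the 38 genes minus its own mean over the 10 arrays (colour, limited at 0.6 in size), genes in rows by role and arrays in columns by label, OIL beside TAM. OIL 206 is red for 35 genes and TAM F3.2 blue for 35.

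Labels were compared next. The label 206 had the highest mean of its OIL and TAM arrays for 29 of 38 genes (76.3%), against 17.4% of all genes tested. The same 2 arrays carried the high megakaryocyte and stroma marker sums given above, whose part in this result was not tested. Of these arrays, OIL 206 was the highest of the 10 for 22 members and TAM 206 for 3. Their median deviations were 0.23 and 0.07. The label F3.2 had the lowest mean for 18 of 38 (47.4%), against 19% of all genes. Of the F3.2 arrays, TAM F3.2 read below the genes' own means for 35 of 38. OIL F3.2 read above them for 21 and was the lowest array for 0. By an F test over the 5 labels with treatment in the model, 2 of 38 members were called, Cad (limma adjusted p = 0.0287) and Nop58 (limma adjusted p = 0.0382), a share of 5.26% against 10.6% of all genes. The label means of Cad were 9.70, 9.98, 9.35, 9.46 and 9.50, and those of Nop58 were 11.67, 11.88, 11.34, 11.23 and 11.69. Both genes were highest in 206, with the F3.1 and F3.2 means at the bottom. The F3.1 and F3.2 arrays are those with the raised 3′ minus 5′ signal of Actb and Gapdh in both groups.

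Arrays labelled F3.1, F3.2 or F3 (6 arrays) were also set against 204 and 206 (4 arrays), with treatment in the model and the label as a random block. In this comparison 1 member was called, Cad, against 6.56% of all genes tested (3.67% lower in F3-labelled arrays). Cad was 9.84 ± 0.17 (SD, n = 4) in the 204- and 206-labelled arrays and 9.44 ± 0.08 (SD, n = 6) in the F3-labelled arrays. It was lower in the latter by 0.40 log2 units, to 0.755 of the level (95% interval -0.62 to -0.19; limma adjusted p = 0.033), with no overlap of the arrays. The call was lost when any 1 of the labels 204, 206, F3.1 or F3.2 was left out (limma adjusted p = 0.0729, 0.267, 0.124 and 0.123), and with 1 value per label (0.138). All 3 probe sets of Cad lay below 0, at -0.28, -0.69 and -0.40.

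Most other members leaned the same way without passing the test. F3-labelled minus 204/206-labelled differences were below 0 for 30 of 38 genes, with a median of -0.13, beside 0.00 over all genes tested. That median was -0.06 without label 206 and -0.21 without label 204. Myeloid marker sums were 9.19 to 11.52 on the F3-labelled arrays and 8.59 to 9.44 on the others. Of the 6 F3-labelled arrays, 4 had the raised 3′ minus 5′ signal of Actb and Gapdh. The part of either was not tested. At an unadjusted p under 0.05, 12 members passed, all lower in F3-labelled arrays (31.6%, against 12.2% of all genes lower and 21.5% in either direction). The arrays of 8 members did not overlap between the label families (21.1% against 11.5% of all genes). Cad, Eif4e, Gar1, Nob1, Npm1, Polr1a and Polr1c were lower in F3-labelled arrays and Wdr3 was higher (6.92% and 4.57% of all genes).

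The largest negative differences after Cad were in growth and nucleolar genes. Srm was 10.41 ± 0.20 (SD, n = 4) in 204/206 and 10.02 ± 0.25 (SD, n = 6) in F3-labelled arrays, a difference of -0.39 (-0.79 to 0.01; limma adjusted p = 0.249). Nop58 was 11.78 ± 0.15 and 11.42 ± 0.23, a difference of -0.35 (-0.65 to -0.05; limma adjusted p = 0.161). For Pa2g4 the means were 12.17 ± 0.13 and 11.84 ± 0.20, a difference of -0.33 (-0.61 to -0.06; limma adjusted p = 0.15). Npm1 differed by nearly as much, -0.33 (-0.54 to -0.12; limma adjusted p = 0.0729). None of these passed the threshold.

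On the positive side stood Tfrc, Wdr12, Wdr3 and Tsr1. Tfrc was 10.60 ± 0.18 (SD, n = 4) and 11.06 ± 0.56 (SD, n = 6), a difference of 0.47 (-0.21 to 1.14; limma adjusted p = 0.425). Wdr12 differed by 0.18 (-0.22 to 0.58), Wdr3 by 0.18 (-0.02 to 0.37) and Tsr1 by 0.18 (-0.04 to 0.39), with limma adjusted p = 0.624, 0.282 and 0.336. Wdr3 read 9.71, 10.02, 10.03, 10.05 and 10.16 in OIL and 10.02, 9.98, 10.18, 10.06 and 10.17 in TAM, with all F3-labelled arrays above the 204 and 206 arrays. Tsr1 read 9.82, 10.16, 10.11, 10.32 and 10.02 in OIL and 9.83, 9.93, 10.12, 10.07 and 10.03 in TAM, where the 204 arrays were lowest and OIL 206 overlapped the F3-labelled arrays.

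By role, all 4 abundant nucleolar genes and all 3 box C/D genes lay below 0 in this comparison, with medians of -0.20 and -0.14. Ncl was barely below, at -0.00487, while its other probe sets ran from -0.50 to -0.02. The other probe sets of Pa2g4 ran from -0.18 to 0.00356, beside -0.33 on the one used. The 6 growth genes had a median of -0.30, with Tfrc alone above 0. Polr1b was the polymerase I gene above 0, at 0.03, beside -0.23 for Polr1a and -0.26 for Polr1c. The 9 large-subunit genes had a median of -0.07 and the 8 small-subunit genes one of -0.14.

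**Figure D5:**
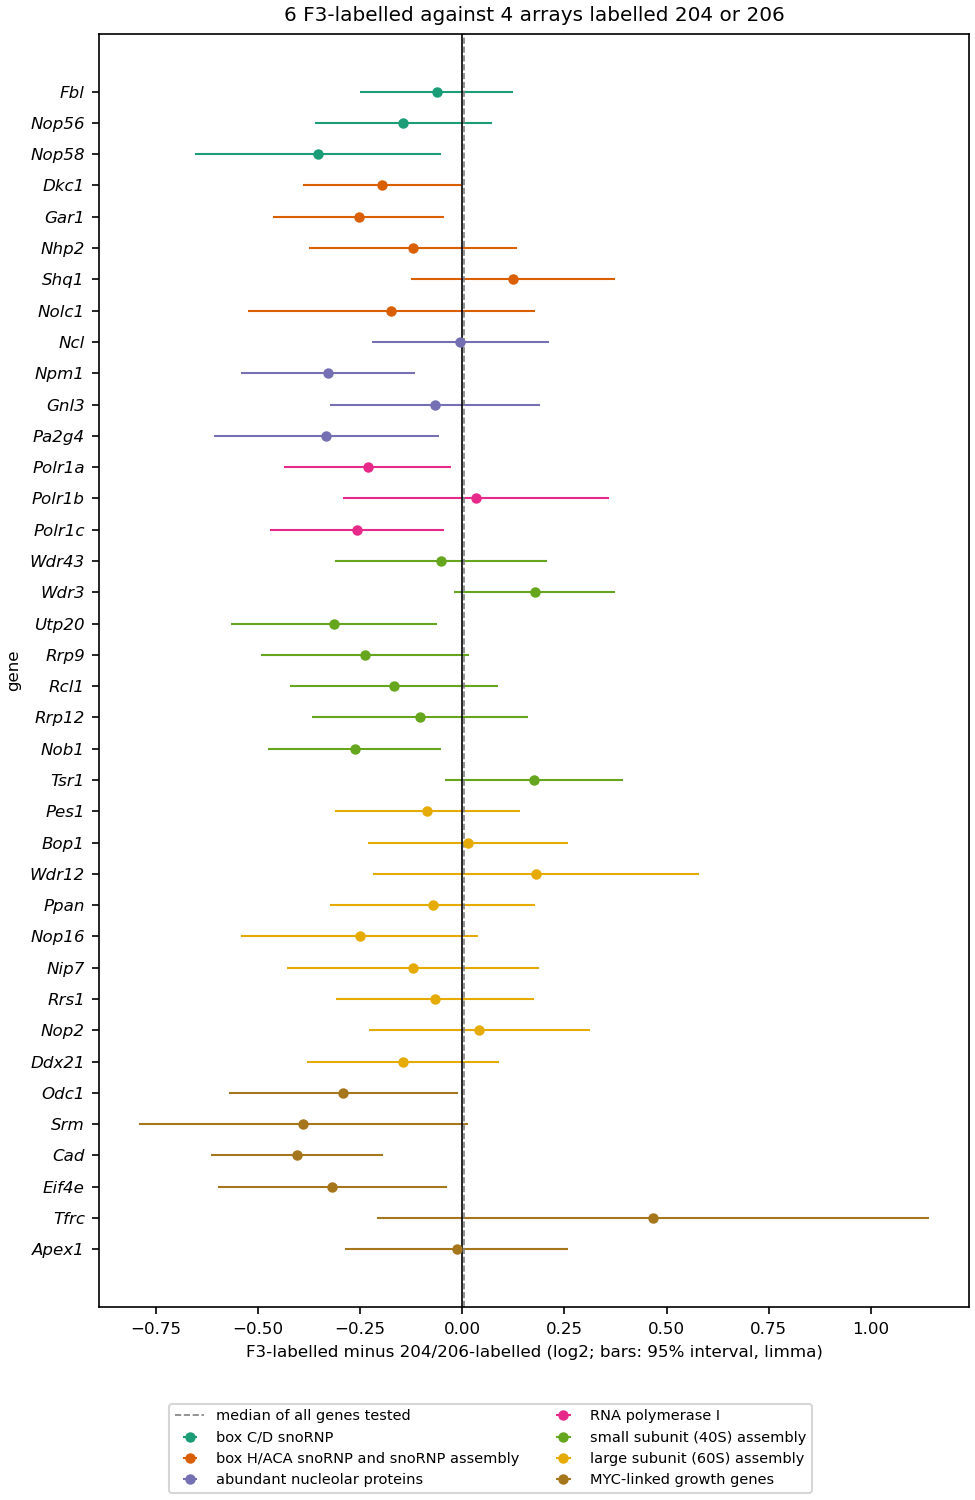
F3-labelled minus 204- and 206-labelled difference (log2, horizontal axis) of each of the 38 genes, coloured by role, with 95% intervals from limma (6 against 4 arrays, label as a random block); the dashed line is the median of all genes tested. Points lie below 0 for 30 genes, from -0.40 (Cad) upward, and Tfrc lies farthest to the right at 0.47.

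The treatment difference was not found to depend on the label family. The interaction of treatment and family called 0 of the 38 members and 0 of all 12736 genes (limma), and at an unadjusted p under 0.05 it took 0 of 38 members against 5.61% of all genes. With 6 and 4 arrays, these intervals were wide, reaching from -0.95 to 1.16 log2 units over the members.

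The wider pathway was read from a list of 194 other ribosome biogenesis and growth genes, of which 181 were tested. None passed in TAM against OIL with or without the block, in either direction (limma). An unadjusted p under 0.05 was reached by 11 without the block (6.08%, against 13% of all genes). With the block 16 reached it (8.84%, against 22.4%). The differences of the 181 ran from -0.45 to 0.46, with a median of -0.02. Between the label families 3 of the 181 were called (1.66%, against 6.56% of all genes), all lower in F3-labelled arrays. These were Tcof1, a cofactor of RNA polymerase I (-0.51, limma adjusted p = 0.0119), Utp25, a processome protein (-0.55, adjusted p = 0.00687), and Znhit6, a box C/D assembly factor (-0.46, adjusted p = 0.0221). The F test over labels called 11 of 181, or 6.08% against the 10.6% of all genes. OIL 206 and TAM F3.2 were again the end arrays, with median deviations of 0.15 and -0.19 over these 181 genes.

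Myc itself read 10.78, 10.72, 9.90, 10.01 and 10.61 in OIL and 10.64, 10.62, 10.04, 10.02 and 10.37 in TAM. Its TAM minus OIL difference was -0.06 (limma adjusted p = 0.935), and the F3.1 and F3.2 arrays were the lowest in both groups. It passed the F test across labels (limma adjusted p = 0.0145) and not the comparison of label families (-0.53, adjusted p = 0.0572). Of the other MYC network genes, 2 are named after their values were seen. Mycn, its paralog, was 0.60 log2 units higher in F3-labelled arrays (limma adjusted p = 0.00687), and Mxd4, a repressor that competes for MAX, was 0.80 higher (adjusted p = 0.0398).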

How the data were processed

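Total RNA of sorted leukemic cells, 5 OIL and 5 TAM samples, was hybridised to expression arrays, with labelled targets made from 200 ng. The deposited values are on a log2 scale and, per the submitters' processing notes, come from RMA, in a version not named there. Quantile normalization in RMA takes out shifts common to all genes. Arrays have no read depth, and their number limits the precision.

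Of 45101 probe sets, 34958 were annotated to 1 gene symbol, 932 to several and 9211 to none, and 34754 matched a RefSeq gene (GRCm38.p6). The lowest 30% of 18194 genes by mean, below 4.59, were left out, leaving 12736. No value column went unused (0 left out). Fits used limma 3.58.1 (lmFit, eBayes) under R 4.3.3 (tables read by data.table, release 1.17.8). Benjamini-Hochberg adjustment ran over all genes tested, with a threshold of 0.05. In the label-family and interaction fits the label was a random block by duplicateCorrelation, with a consensus correlation of 0.28 in the former. In the blocked TAM against OIL fit and the F test over labels, the label was a fixed term. The procedure was tested on simulated data. Figures used Python 3.11.15, pandas 2.3.3 and matplotlib 3.10.9.

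The pairing of OIL and TAM arrays comes from the labels, with the last number of the F3.1 and F3.2 names dropped. In a check, deviations of same-labelled arrays from group means correlated over genes at 0.76 (204), 0.75 (206), 0.58 (F3.1), 0.18 (F3.2) and 0.80 (F3). All lay above the limit of 0.1, F3.2 by little. Differently labelled arrays were not compared, so the check cannot tell these pairs from crossed ones. The replicate block was an alternative, as were other filters, normalizations, probe set choices and left-out arrays. The members, the lists and the rule for naming genes were chosen with earlier results of these data known. The rule gave full values to members called in any of the 4 fits as reported (treatment, label families, the 5 labels, and the interaction), alternatives not counted, to the 3 largest treatment differences and the 4 largest label differences in each direction, and to Ncl, Npm1, Fbl, Nop56, Odc1 and Polr1b. Promoter windows came from RefSeq, GRCm38.p6.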

Additional observations from a re-analysis of the deposited data

Results flagged for a closer look

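Among 76 groups of 5 arrays, 5 held an array set far from the other 4 (gap over range above 0.71, Dixon's limit). Chance gives about 1 in 20 such groups, or 3.8. In TAM, the F3.2 array was the low one for Nolc1 (9.49), Rrp12 (7.17) and Nip7 (9.76). In OIL, the 206 array was the high one for Polr1a (8.35). In TAM, the F3.1 array was the high one for Tfrc (12.06). A test of the part of RNA quality or cell makeup in these values was not run.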

How the results depend on the processing

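The count of members called in TAM against OIL was 0 under every alternative run, including the replicate block (paired by label), while the count over all genes ran from 8 (without OIL F3.1) to 431 (block), beside 60. The median difference of the members ran from -0.08 to 0.03 and was above 0 without OIL 206 or TAM F3.2. In the comparison of label families the count of members called was 1, and 2 (Cad and Npm1) with trended robust eBayes or no random label block. It was 0 with 1 value per label, OIL arrays only, TAM arrays only, median centring or the probe set of lowest mean. It ran from 0 to 8 over the labels left out. The 8 came without F3, when 18.9% of all genes were called. The F test over labels called 3 members with probe sets averaged (Cad, Nolc1 and Nop58), beside 2. Cad, called between label families, had limma adjusted p = 0.168 (OIL only), 0.297 (TAM only), 0.0628 (median centring) and 0.273 (lowest probe set). Some uncalled differences turned sign. In TAM against OIL, with OIL F3.1 and F3.2 averaged, Cad was -0.0428 and Nop58 -0.00621. Nop56 was 0.0213 with probe sets averaged and 0.0599 with the lowest probe set, and Pes1 0.0809 with the lowest. Between label families, the lowest probe set gave -0.14 for Tfrc and 0.00356 for Pa2g4. The cause was not tested.

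With each array left out in turn, the TAM minus OIL difference ran from -0.112 to 0.0314 for Npm1, -0.047 to 0.0442 for Nop56, -0.0635 to 0.126 for Cad, -0.0242 to 0.166 for Nop58 and -0.113 to 0.282 for Tfrc. None of these was called in any setting. The number of arrays, 5 per group, limits what small differences can be seen.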
